A study of Bos taurus with 16 samples.

Results

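The 7 interferon-stimulated genes described here, each read by 1 of the 15208 array probes that are not controls, were followed through the bovine corpus luteum, the ovarian gland that makes progesterone: ISG15, MX1, MX2, EIF2AK2, DHX58, IFITM3 and LGALS9. The members were a list of names, matched to the gene name, accession or description that the array gives each spot. All 7 passed the filter on dim probes, as did 11943 probes in all. The array writes DHX58 as LGP2 and EIF2AK2 as PRKR, and the accession of the IFITM3 probe now belongs to a locus that carries IFITM3 as a synonym. As 2 bovine RefSeq genes carry that synonym, the signal may come from either copy.

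Glands came from 16 Japanese Black cows, 4 in each of 4 groups. One group was not pregnant and was sampled on days 10 to 12 of the estrous cycle (cyclic), and 3 groups were pregnant, at days 20 to 25, 40 to 45 and 150 to 160 of gestation, counted with insemination as day 1. No cow is labelled as treated, and ages are not given in the labels. Total RNA of each gland, 400 ng, was labelled with the dye Cy3 and hybridised to its own 1-colour array, with replicates 1 and 2 of every group on slide 1 and replicates 3 and 4 on slide 2. The cyclic glands were taken earlier after ovulation than any pregnant gland, so pregnancy and the age of the gland cannot be told apart in a comparison with them.

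Type I interferons bind a shared receptor and act through JAK kinases and transcription factors, IRF9 among them, which switch on a large set of antiviral genes. In ruminants the conceptus itself secretes such an interferon, interferon tau, around the time the mother recognises the pregnancy, and it acts on the uterus to protect the corpus luteum from luteolysis. Interferon-stimulated genes are also known to respond outside the uterus at that time, in blood cells and in the corpus luteum.

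The probe sequences are shown because each level below rests on 1 such oligo. The last 30 of the 60 bases are printed for 6 of the 7 genes, in lower case, with the polyadenylation hexamer AATAAA in capitals where the printed strand holds it.
MX1: ttgtgaatgcatacagaagcctatttcttc
MX2: cgtaccacctgcttcccatcatttgctgtg
EIF2AK2: tccattttcctgtaactgtctaaagtctgc
DHX58: cataaattaaaAATAAAgaagtggaaaacg
IFITM3: cccgtgaAATAAAaggagggtttgtgtgtt
LGALS9: ggtctgaaaacgaaagcaacgagaggaacg
The hexamer was found in 2 of the 7 probes and in 11.3% of all 15208 probes, on the printed strand only. The longest run of bases shared by any pair of these probes was 8, between EIF2AK2 and MX2. MX1 and MX2 are adjacent protein-coding genes in the RefSeq annotation, and their probes shared a run of 6 bases. The IFITM3 probe shared a run of 5 with the probe for its relative IFITM1.

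Levels are log2 signal minus the 75th percentile of the same array, so 0 is the level of that percentile, and a difference of 1 is a doubling. Between 71.9% and 79.6% of probes were well above background on each array. The steroidogenic and other luteal cell markers fixed for the tissue, STAR, CYP11A1 and HSD3B1 among them, were well above background on all arrays for 9 of 9 genes. Replicate 4 of days 20 to 25 stood apart from its own group, with a mean correlation over all tested probes of 0.962 against 0.978 to 0.980 for the other 3 cows, and its results are given with and without it where it matters. Differences were tested with limma on all 16 arrays, with Benjamini-Hochberg adjustment over the 11943 probes, and are called at an adjusted p under 0.05. As each gland is a mixture, fewer cells of a type and less RNA per cell cannot be told apart.

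All 7 genes had their highest group mean on days 20 to 25 of pregnancy. The F test over the 4 groups called 6 of the 7, which is to be read against 3.86% of all probes. The 6 include LGALS9, which passed the filter on dim probes only through days 20 to 25, the group where it is high, so its call is no support of its own. Among the 6 genes well above background on all arrays 5 were called. The exception was MX1, with an adjusted p of 0.229. The adjusted p of the 6 called lay between 0.0174 for MX2 and 0.0353 for ISG15. Under normexp background correction the F test did not call MX2 (adjusted p 0.361), LGALS9 (0.397) or EIF2AK2 (0.0834). That setting also adds an offset of 50 to every signal, which by construction shrinks the differences of dim probes. On days 20 to 25 the processed signals were at most 74.1 for MX2, 55.1 for LGALS9 and 290 for EIF2AK2. The lost calls therefore cannot be told apart from the effect of the offset. Without replicate 1 or replicate 3 of days 20 to 25 the F test called 1 of the 7, and without replicate 4 of that group or replicate 2 of days 150 to 160 it called 3.

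**Figure D1:**
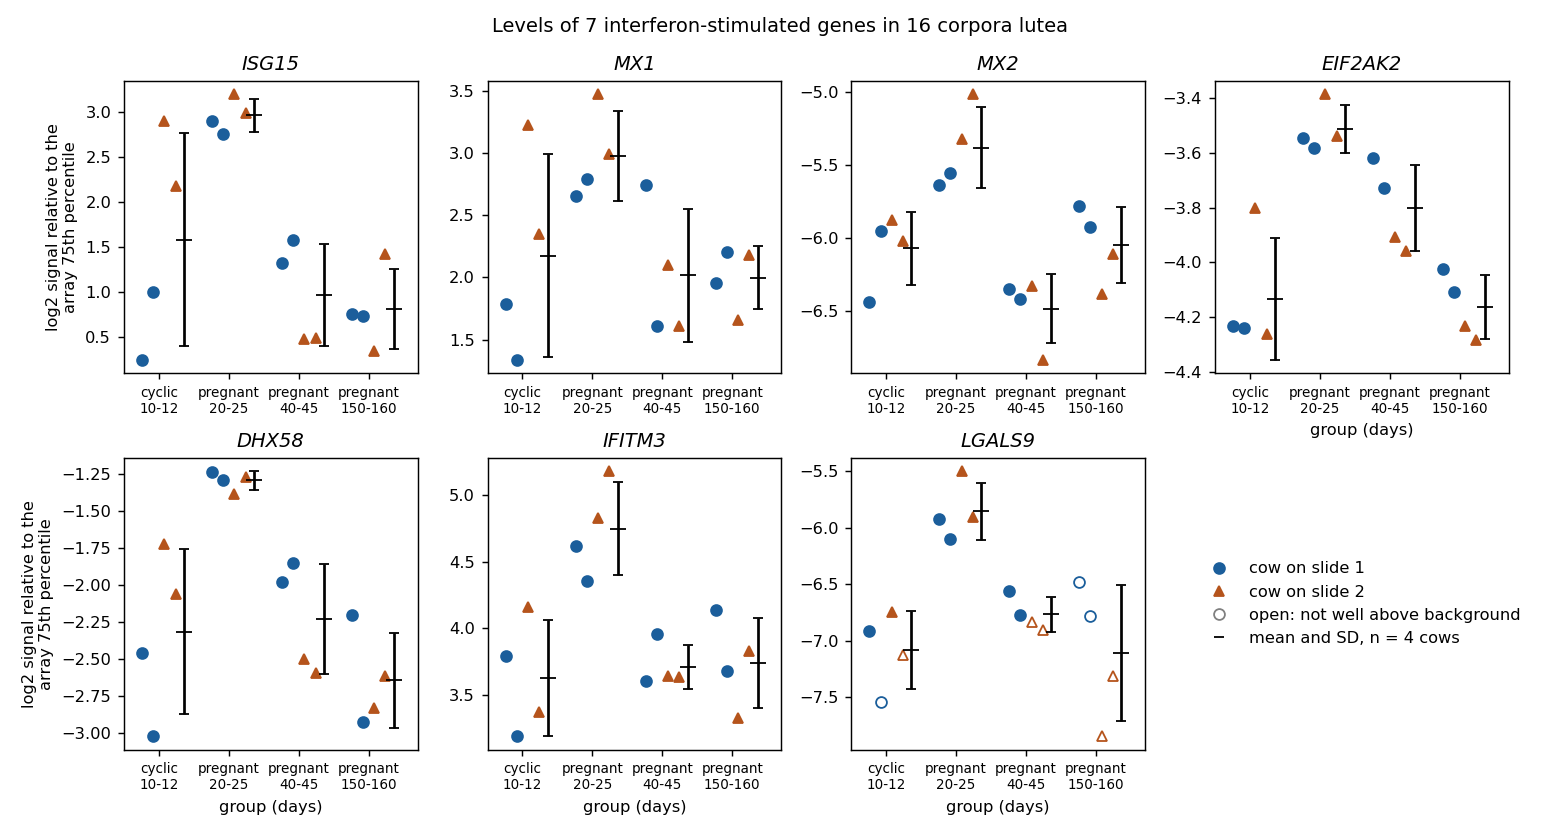
Level of each gene (log2 signal relative to the 75th percentile of the array) in every cow of the 4 groups, with circles for slide 1, triangles for slide 2, open symbols where the probe was not well above background, and the mean and SD of 4 cows beside the points. The mean of days 20 to 25 is highest for all 7 genes, cyclic replicate 3 reaches into its range for ISG15 and MX1, and the cyclic glands spread widely for ISG15, with an SD of 1.18.

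ISG15, a ubiquitin-like protein that is joined to other proteins during an interferon response, stood at 0.25, 1.00, 2.90 and 2.17 in the cyclic cows (replicates 1 to 4) and at 2.90, 2.76, 3.20 and 2.99 on days 20 to 25. It stood at 1.32, 1.58, 0.48 and 0.48 on days 40 to 45 and at 0.75, 0.73, 0.34 and 1.42 on days 150 to 160. All days 20 to 25 glands were high, and every later gland was lower than all of them. The cyclic glands were split, since both cows on slide 1 were low and replicate 3 on slide 2 reached the range of days 20 to 25. The difference between days 20 to 25 and cyclic was 1.38 ± 0.454 (SE), with an adjusted p of 0.201 (limma). The fall from days 20 to 25 to days 150 to 160 was -2.15 ± 0.454, the largest of the 7, with an adjusted p of 0.0279 (limma).

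MX1 and MX2 are dynamin-like GTPases that block virus replication. MX1 stood at 1.79, 1.34, 3.22 and 2.35 in cyclic cows, at 2.65, 2.79, 3.47 and 2.99 on days 20 to 25, at 2.74, 1.61, 2.10 and 1.61 on days 40 to 45, and at 1.96, 2.20, 1.65 and 2.18 on days 150 to 160. Cyclic replicate 3 and replicate 1 of days 40 to 45 lay within the range of days 20 to 25, and the days 150 to 160 glands lay below it. MX1 was not called in any of the 6 comparisons between groups, and its difference between days 20 to 25 and cyclic was 0.80 ± 0.351 (adjusted p 0.319, limma).

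MX2 stood at -6.44, -5.95, -5.88 and -6.02 in cyclic cows and at -5.63, -5.55, -5.32 and -5.01 on days 20 to 25. It then stood at -6.35, -6.42, -6.33 and -6.83 on days 40 to 45 and at -5.78, -5.92, -6.38 and -6.11 on days 150 to 160. The days 20 to 25 glands overlapped with none of the other groups, and days 40 to 45 had the lowest mean. MX2 lay near background, with a days 40 to 45 mean of -6.48 where the lowest signal well above background averaged -6.84. Under normexp background correction with its offset of 50 the scaled values of the groups did overlap. Cyclic replicate 3 (-4.40) and days 150 to 160 replicate 1 (-4.37) were then above days 20 to 25 replicate 2 (-4.61). The processed signals of these glands were 34.4, 46.4 and 74.1, of the size of the offset. The 75th percentiles of their arrays were 2020, 2553 and 3475. That overlap cannot be told apart from the effect of the offset. The difference between days 40 to 45 and days 20 to 25 was -1.10 ± 0.184, with an adjusted p of 0.0594 (limma). That placed MX2 at rank 5 by p among all probes in a comparison that called 4 probes.

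EIF2AK2 encodes PKR, the kinase that stops translation when it binds double-stranded RNA. It stood at -4.23, -4.24, -3.80 and -4.26 in cyclic cows, at -3.54, -3.58, -3.39 and -3.54 on days 20 to 25, at -3.62, -3.73, -3.91 and -3.96 on days 40 to 45, and at -4.03, -4.11, -4.23 and -4.28 on days 150 to 160. It was the one gene of the 7 whose days 40 to 45 glands lay between the days 20 to 25 and the days 150 to 160 glands with no overlap on either side. The differences were -0.29 ± 0.130 (adjusted p 0.574) from days 20 to 25 to days 40 to 45 and -0.65 ± 0.130 (adjusted p 0.0200) to days 150 to 160, by limma.

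DHX58, also called LGP2, is a cytosolic RNA helicase that tunes the RNA sensors RIG-I and MDA5. It stood at -2.46, -3.02, -1.72 and -2.06 in cyclic cows and at -1.23, -1.29, -1.38 and -1.27 on days 20 to 25, an SD of 0.064 in the latter against 0.561 in the former. It stood at -1.98, -1.85, -2.50 and -2.60 on days 40 to 45 and at -2.20, -2.92, -2.83 and -2.62 on days 150 to 160. No gland of another group reached the days 20 to 25 range. DHX58 had the smallest adjusted p of the 7 for the fall to days 150 to 160, 0.0136 for -1.35 ± 0.253 (limma).

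IFITM3 is a membrane protein that hinders virus entry. It stood at 3.79, 3.19, 4.16 and 3.37 in cyclic cows, at 4.62, 4.35, 4.83 and 5.18 on days 20 to 25, at 3.60, 3.96, 3.64 and 3.63 on days 40 to 45, and at 4.13, 3.68, 3.32 and 3.83 on days 150 to 160. The days 20 to 25 glands were above all 12 others, and the largest difference among the other 3 group means was 0.11, for days 150 to 160 against cyclic. The difference between days 20 to 25 and cyclic was 1.12 ± 0.231 (adjusted p 0.0616, limma).

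LGALS9 encodes galectin-9, a sugar-binding protein of the immune response. It stood at -6.91, -7.54, -6.75 and -7.13 in cyclic cows, at -5.92, -6.10, -5.50 and -5.90 on days 20 to 25, at -6.56, -6.77, -6.84 and -6.91 on days 40 to 45, and at -6.48, -6.78, -7.85 and -7.31 on days 150 to 160. It was well above background in all 4 glands of days 20 to 25, in 2 of 4 cyclic glands, in 2 of 4 glands of days 40 to 45 and in none of days 150 to 160; the other 6 genes were above it on all 16 arrays. The days 20 to 25 glands lay above all the others. Because no gland of days 150 to 160 measured it, the fall from days 20 to 25 has only a bound. The bound was 1.51-fold if the lowest signal of any probe well above background on those arrays is taken as the limit. The limit of the LGALS9 spot itself is not known and may be higher. The measured means gave 2.38-fold (-1.25 ± 0.255, adjusted p 0.0227, limma). The call was lost when values under background were raised to it (-0.59, adjusted p 0.0720). It was also lost under normexp background correction with its offset of 50, which shrinks differences of dim probes (-0.18, adjusted p 0.722).

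Against the cyclic glands, days 20 to 25 had the higher mean for all 7 genes (57.2% of all probes), by 0.62 for EIF2AK2 to 1.38 for ISG15, with a median of 1.02 where all probes had a median of 0.05. None of the 7 was called, where 0.293% of all probes were. The adjusted p ranged from 0.0616 for IFITM3 and LGALS9 to 0.319 for MX1 (limma), and all 7 had an unadjusted p under 0.05, as did 14.1% of all probes. In 5 of the 7 every days 20 to 25 gland was above every cyclic gland, against 5.73% of all probes; the exceptions were ISG15 and MX1. With slide as a block in the fit, LGALS9 (adjusted p 0.0489) and EIF2AK2 (0.0485) were called. LGALS9 is among the 7, the 5 and these 2. It passed the filter on dim probes only through days 20 to 25, so its place in these counts is no support of its own. Without cyclic replicate 3, or without replicate 1 or 3 of days 150 to 160, which enter the shared spread, 2 of the 7 were called, and without replicate 4 of days 20 to 25 none was.

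The difference stood on both slides, with sizes that varied by gene. On slide 1 the median over the 7 was 1.15 and on slide 2 it was 0.57, and all 7 were above 0 on each. For ISG15 it was 2.21 on slide 1 and 0.56 on slide 2, for DHX58 1.48 and 0.57, and for MX1 1.15 and 0.44. IFITM3 (1.00 and 1.24), EIF2AK2 (0.67 and 0.57), MX2 (0.60 and 0.78) and LGALS9 (1.22 and 1.24) had closer values. LGALS9 was not well above background in cyclic replicate 2 on slide 1 or cyclic replicate 4 on slide 2. In the fit with a term for the difference between slides, none of the 7 was called and 0% of all probes were, and ISG15 (1.65, unadjusted p 0.00814, adjusted 0.870) and DHX58 (0.92, unadjusted p 0.0286, adjusted 0.910) had an unadjusted p under 0.05, against 4.95% of all probes (limma).

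Within groups the mean levels differed by slide. The mean level of ISG15 was 0.62 in the cyclic cows of slide 1 and 2.54 in those of slide 2, that of MX1 was 1.56 and 2.79, and that of DHX58 -2.74 and -1.89, while the days 20 to 25 means of ISG15 were 2.83 and 3.10. On days 40 to 45 slide 1 was the higher, with means of 1.45 and 0.48 for ISG15 and -1.91 and -2.55 for DHX58. Each mean is over 2 cows, so a slide and the cows on it cannot be told apart. The mean deviation of the 7 genes from their own means was 0.43 in cyclic replicate 3 and -0.62 to -0.10 in the other cyclic cows, against 0.61 to 0.97 on days 20 to 25.

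**Figure D2:**
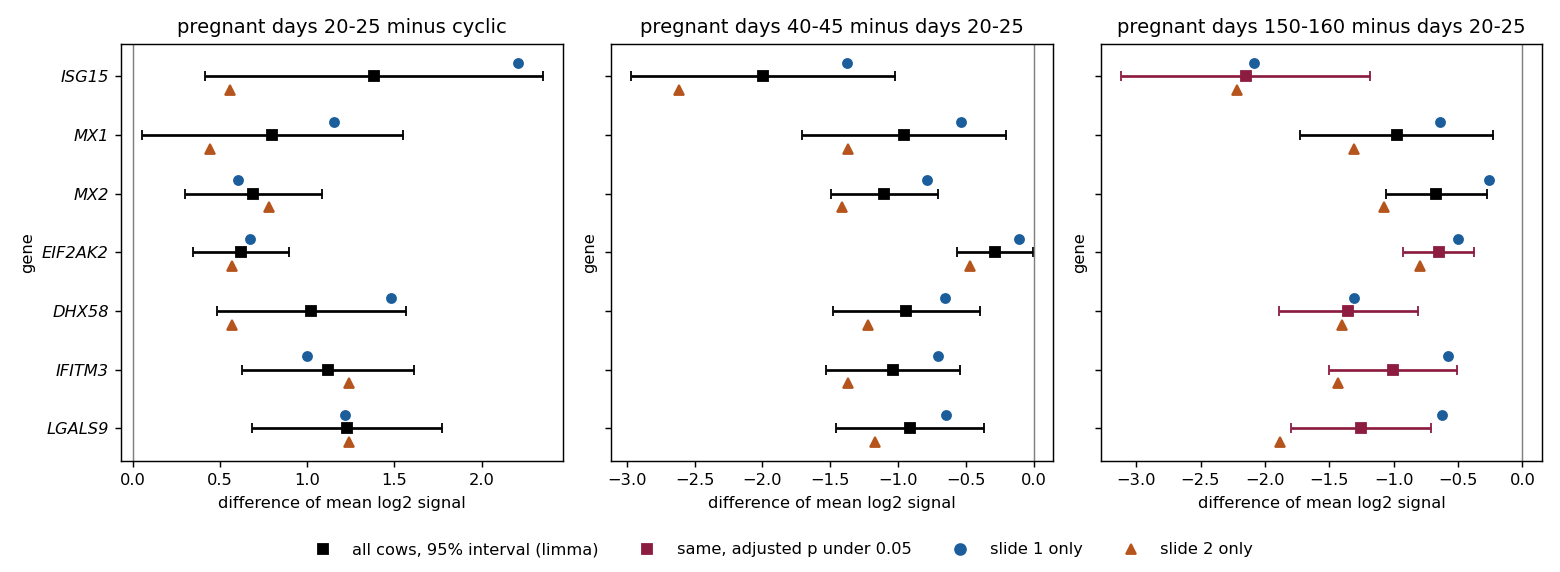
Difference of mean log2 signal for each gene in 3 comparisons, with squares and 95% intervals from limma over all cows (dark red where the adjusted p was under 0.05), and circles and triangles for slides 1 and 2 alone. All 7 genes sit above 0 for days 20 to 25 minus cyclic and below 0 for both later stages minus days 20 to 25, and 5 were called in the last comparison.

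From days 20 to 25 to days 40 to 45 all 7 genes were lower, by a median of -0.96 (all probes -0.05). None was called, in a comparison that called 0.0335% of probes. In 6 of the 7 the groups did not overlap, against 6.26% of all probes lower without overlap. LGALS9 is among the 6 and passed the filter only through days 20 to 25, so it is no support of its own. ISG15 was 3.99-fold lower, at -2.0 ± 0.454 with an adjusted p of 0.230 (limma). MX1 was the gene that overlapped. Of the 12 alternative settings other than leaving out 1 array, 11 called none. With array weights in the fit 5 of the 7 were called.

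From days 20 to 25 to days 150 to 160, DHX58, EIF2AK2, LGALS9, ISG15 and IFITM3 fell, 5 of the 7, where 1.57% of all probes were called in either direction and 0.929% were called lower. LGALS9 passed the filter only through its high group, and without it the count was 4 of the 6 genes well above background on all arrays. IFITM3 was -1.0 ± 0.231 with an adjusted p of 0.0432 (limma). MX1 (-0.98, adjusted p 0.206) and MX2 (-0.67, adjusted p 0.0877) were not called. In all 7 every days 150 to 160 gland lay below every days 20 to 25 gland, against 5.13% of all probes. The median was -1.0 over the 7 and -0.03 over all probes, and it was -0.62 on slide 1 and -1.40 on slide 2. Slide as a block also left 5 called.

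The count of 5 depended on the background setting, the samples fitted and single arrays. Under normexp with its offset of 50 it was 3, as LGALS9 (-0.18, adjusted p 0.722) and EIF2AK2 (-0.41, adjusted p 0.118) were lost (limma). Both are dim probes, whose differences the offset shrinks by construction. With only these 2 groups fitted it was 2. It was 1 without replicate 1 or without replicate 3 of days 20 to 25, 3 without replicate 2 or replicate 4 of that group, 2 without replicate 2 or replicate 4 of days 150 to 160, and 3 without replicate 3 of days 150 to 160. DHX58 was called in 15 of the 16 fits that left out an array, with a highest adjusted p of 0.0529, LGALS9 in 13, EIF2AK2 in 12, ISG15 in 10 and IFITM3 in 5.

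Against the cyclic glands, the later stages called none of the 7. On days 40 to 45, where 1.23% of all probes were called, the median difference was 0.08, from -0.61 for ISG15 to 0.33 for EIF2AK2. On days 150 to 160, where 7.97% of all probes were called, it was -0.03, from -0.77 for ISG15 to 0.11 for IFITM3. The sign turned with the slide. On slide 1 the median was 0.57 for days 40 to 45 and 0.34 for days 150 to 160, and on slide 2 it was -0.64 for both. Between days 150 to 160 and days 40 to 45 none was called (0.0419% of all probes), with a median of -0.15, and the groups did not overlap for EIF2AK2, with days 150 to 160 the lower (2.3% of all probes were lower without overlap).

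Cow by cow, within groups, the 7 genes moved together in the sense that all 21 pairs had a positive correlation of their deviations from the group means over the 16 cows. Pearson's r had a median of 0.57, from 0.29 for LGALS9 with ISG15 to 0.71 for DHX58 with ISG15, and Spearman's rho a median of 0.49. No pair passed by either measure after Benjamini-Hochberg adjustment over the 21 pairs, and 8 had an unadjusted p under 0.05 by r and 5 by rho (permutation test within groups, two-sided). EIF2AK2 with LGALS9 had an r of 0.66 (permutation p 0.00528, adjusted 0.0848) and a rho of 0.70 (permutation p 0.00393, adjusted 0.0825), and an r of 0.73 without the 2 cows farthest from the median of LGALS9. LGALS9 was well above background on 8 of the 16 arrays, so its pairs rest in part on background-level values. On each slide alone all 21 were above 0, with medians of 0.56 and 0.66. Those deviations were still taken from group means over both slides, so differences between slides within a group remain in them. The permutations did not keep to slides either. Agreement between cows of the same group and slide was thus not tested. Over all pairs, leaving out the 2 farthest cows gave r from 0.16 to 0.76. The pairs share arrays and their scaling.

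**Figure D3:**
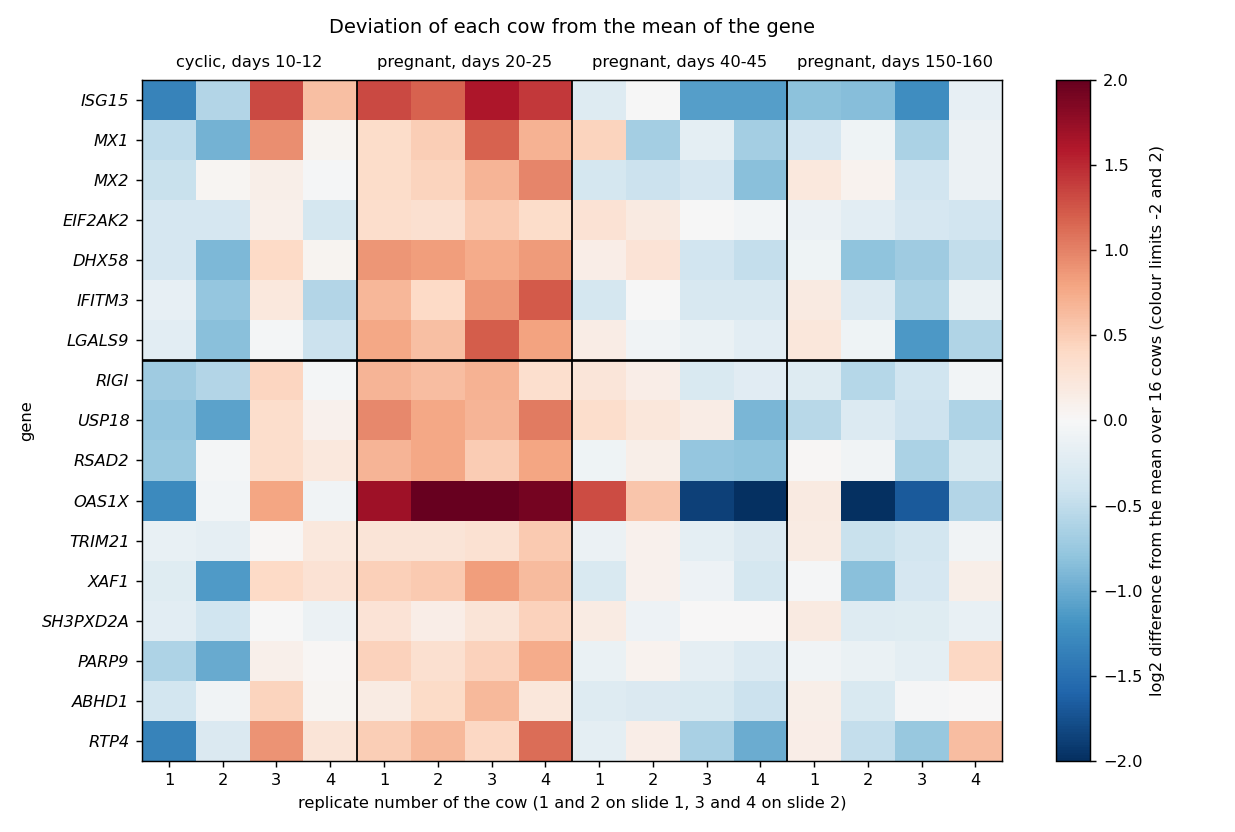
Log2 difference of each cow from the mean of the gene over 16 cows, for the 7 genes (above the line) and the 10 named genes whose pattern was most like theirs (below it). Colours stop at -2 and 2, which some OAS1X values pass. The 4 days 20 to 25 columns are red for every gene of the upper block, and cyclic replicate 3 is red for most of them.

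Among 5892 other named genes, the 10 whose levels over the 16 cows were most like the mean deviation of the 7 were RIGI (Pearson r 0.90), USP18 (0.88), RSAD2 (0.87), OAS1X (0.85), TRIM21 (0.84), XAF1 (0.84), SH3PXD2A (0.82), PARP9 (0.79), ABHD1 (0.78) and RTP4 (0.78). This is a description over cows that share arrays, and it includes the differences between groups. RIGI is the RNA sensor RIG-I, USP18 removes ISG15 from proteins and damps the interferon receptor, RSAD2 is the antiviral protein viperin, and OAS1X belongs to the oligoadenylate synthetases.

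Lists of the interferon pathway were read in the same fit. None of the 7 interferon ligands on the array, among them the interferon tau probe IFNT2 and IFNB1 and IFNG, passed the filter, and on no array was the probe IFN-tau-c1 well above background. The 5 receptor genes tested, with IFNAR1 and IFNAR2 for type I interferon and IFNGR1 and IFNGR2 for interferon gamma, had a median difference of -0.08 between days 20 to 25 and cyclic, and none was called. Of the 5 interferon regulatory factors, with a median of 0.18, none was called, and IRF9 was at 0.80 (adjusted p 0.153, limma).

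Of 9 RNA and DNA sensors and adaptors tested, none was called and the median was 0.25. RIGI was at 0.81 (adjusted p 0.133), with 1.30 on slide 1 and 0.33 on slide 2. Of 3 negative regulators tested, none was called, with a median of 0.36. USP18 was at 1.22 (adjusted p 0.101), with 1.79 on slide 1 and 0.64 on slide 2. From days 20 to 25 to days 150 to 160 USP18 fell by 1.33 with an adjusted p of 0.0435 (limma). It was the 1 called of these 3, in a comparison that called 1.57% of all probes.

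Of 21 other interferon-stimulated genes tested of 22 on the array, none was called on days 20 to 25 against cyclic. Of these, 15 were above 0 and the median was 0.14, with 0.68 on slide 1 and 0.12 on slide 2. OAS1X stood at 2.08 (adjusted p 0.239), PARP9 at 0.87 (0.106) and RSAD2 at 0.74 (0.214), while IFI30 stood at -0.76 (0.122), all by limma. IFI30, a lysosomal thiol reductase of antigen processing, fell by 1.31 on days 150 to 160 against cyclic (adjusted p 0.00208, limma), the 1 gene of these 21 called in a comparison that called 7.97% of all probes. Of 10 genes of MHC class I and the immunoproteasome, none was called on days 20 to 25 and the median was 0.05, and the immunoproteasome subunit PSMB9 fell by 0.80 on days 150 to 160 against cyclic (adjusted p 0.0223, limma), the 1 called of 10 against the same 7.97%.

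**Figure D4:**
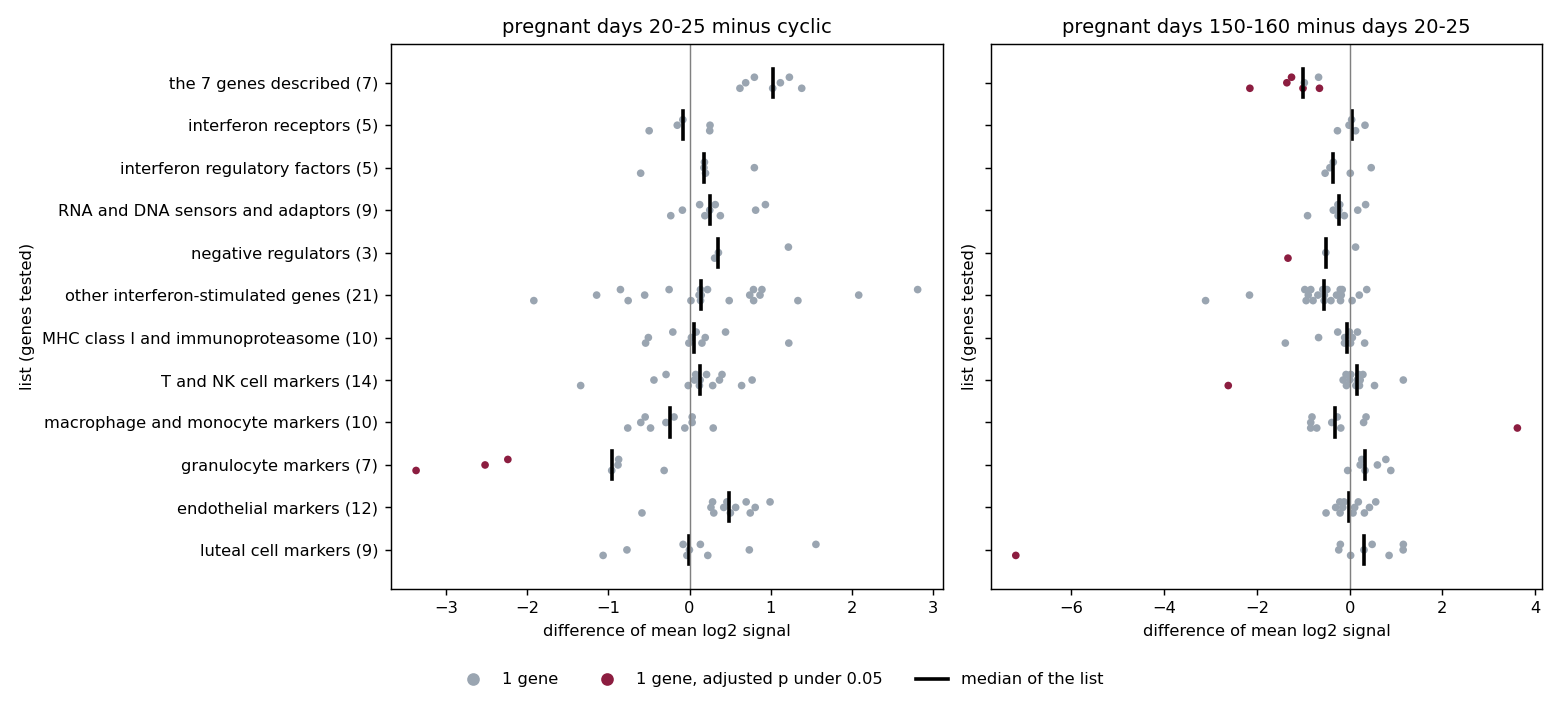
Difference of mean log2 signal for every tested gene of the 7 and of the pathway and marker lists named on the axis, for days 20 to 25 minus cyclic and days 150 to 160 minus days 20 to 25, with 1 point per gene, dark red where the adjusted p was under 0.05, and a bar at the median of the list. The 7 genes have a median of 1.02 in the left panel and -1.0 in the right one, and the granulocyte markers have a median of -0.96 in the left one.

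Markers of other cells were read in the comparison of days 20 to 25 with cyclic. Of 7 granulocyte markers on days 20 to 25, the cathelicidins CATHL1, CATHL3 and CATHL4 were called lower, where 0.0754% of all probes were. None of these 3 was well above background in a days 20 to 25 gland. They passed the filter on dim probes only through another group, so their calls are no support of their own. The size of their fall was not measured. All 7 markers were below 0, with a median of -0.96. The mean deviation of this list was 0.25 to 1.95 in cyclic cows and -0.86 to -0.26 on days 20 to 25. Of 12 endothelial markers 11 were above 0, none was called and the median was 0.48, and the mean deviation was -0.44 to -0.14 in cyclic cows and 0.09 to 0.29 on days 20 to 25.

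Of 14 T and NK cell markers tested, 10 were above 0, with a median of 0.13 and mean deviations of -0.83 to 0.33 and -0.28 to 0.78, and no array had CD4 or CD28 well above background. Of 10 macrophage and monocyte markers tested, 3 were above 0, with a median of -0.24 and mean deviations of -0.26 to 1.02 and -0.26 to 0.28, and no array had C1QA well above background. Of 3 B and plasma cell markers tested 2 were above 0 (median 0.30), and of 2 dendritic cell markers tested 1 was (median -0.22). None of these was called on days 20 to 25. From days 20 to 25 to days 150 to 160 the medians were 0.33 for granulocyte, -0.02 for endothelial, 0.15 for T and NK cell and -0.32 for macrophage markers. In that comparison the NK cell receptor KLRD1 was called lower and the integrin ITGAM higher, where 1.57% of all probes were called. They were the only markers of these 4 lists that were called. No days 150 to 160 gland had KLRD1 well above background, and 1 of 4 days 20 to 25 glands had ITGAM above it. The part of any of these cells in the values of the 7 genes was not tested.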

How the data were processed

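Signals of 16 arrays were deposited by the authors as scanner output, with processed, mean and background intensity per spot, made with Agilent Feature Extraction 9.5 per the submitters' processing notes. A deposited table of log2 values held the processed signal minus a constant near the 75th percentile, per the file headers and a comparison with the scanner values (largest departure 0.0046), and was used as an alternative. No genome build is named in the sources used here, and no coordinates are given.

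Control spots (536 per array) were left out, 36 spots flagged as outliers were set to missing, and log2 processed intensity minus the 75th percentile of each array was fitted with limma 3.58.1 in R 4.3.3, with group as the only term (12 residual degrees of freedom). A probe was tested where it was well above background on at least 3 of 4 arrays of a group. The fit was tested on simulated data. Correlations used 100000 permutations within groups (numpy 2.4.6). The number of arrays limits the precision. Labels call the samples separate animals.

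Gene names came from the array's own annotation, updated through RefSeq, where 8213 of 15208 probes had none. All 7 genes were named, and in the pathway lists every gene called against cyclic, or else up to 4 of the smallest adjusted p on days 20 to 25, could be named. The likeness rule took the 10 symbols of highest r. Genes and lists were chosen with earlier results of these data known. Alternatives covered normexp background correction with an offset of 50 added to every signal, scaling, the filter and values under background. They also covered slide, replicate number, the samples fitted, array weights, the authors' table and leaving out each array. Some items are not reported here.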

Additional observations from a re-analysis of the deposited data

Results flagged for a closer look

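In the days 40 to 45 group, IFITM3 stood at 3.96 in replicate 2, with the other 3 cows between 3.60 and 3.64, a gap of 0.905 of the range. In the cyclic group, EIF2AK2 stood at -3.80 in replicate 3, with the others between -4.26 and -4.23, a gap of 0.942 of the range. Both gaps lay beyond Dixon's 95% critical value for 4 samples. These were 2 of 32 sets of 4 cows examined (7 genes and their mean deviation in 4 groups), and chance flags about 1 in 20 such sets.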

How the results depend on the processing

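On days 20 to 25 against cyclic, 0 of the 7 were called, and 1 under quantile normalization, 1 with values under background raised to it, 2 with slide as a block, 2 with array weights and 0 to 2 when 1 array was left out. The median was 0.57 within slide 2. On days 40 to 45 against days 20 to 25 array weights called 5, and leaving out 1 array 0 to 1. On days 150 to 160 against days 20 to 25, the count of 5 became 3 under normexp, 0 within slide 1, 0 within slide 2, 3 with the replicate block (IFITM3 at an adjusted p of 0.0645 and ISG15 at 0.0509 were lost, limma), 2 with only the 2 groups compared and 1 to 5 with 1 array left out, and it was 4 with no filter on dim probes, 4 with values under background raised to it and 6 with array weights. The F test called 3 under normexp and 1 to 6 with 1 array left out, and correlation pairs passing rose to 1 under normexp. The cause of these changes was not tested, except that fits within 1 slide or of 2 groups hold fewer samples. The normexp setting also adds an offset of 50, which shrinks the differences of dim probes by construction. Same-numbered cows of different groups had correlations of 0.00057 to 0.29 over 24 pairs of arrays, all above 0 and 9 over 0.1. As no 2 groups had every pair over 0.1 and no label says that a number is shared, the numbers were not taken as pairs. As a hint from the data, the same number was the closest of 4 candidates in 13 of 24. It was so in 4 of 4 for days 20 to 25 with days 150 to 160. Same-numbered arrays also lie on the same slide, and the part of the slide in these counts was not tested. With the replicate block the F test called 5, and the other counts of calls among the 7 stayed at 0.

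Against cyclic, medians within slides 1 and 2 were 0.57 and -0.64 on days 40 to 45, and 0.34 and -0.64 on days 150 to 160. Signs turned on days 40 to 45 within slide 1 for MX1 (0.61) and ISG15 (0.83), and within slide 2 for IFITM3 (-0.13) and DHX58 (-0.66). On days 150 to 160 they turned within slide 1 for LGALS9 (0.60), DHX58 (0.18), EIF2AK2 (0.17), MX1 (0.51) and ISG15 (0.12), and within slide 2 for IFITM3 (-0.19) and MX2 (-0.30). There MX2 was -0.16 under quantile normalization and -0.079 with array weights, LGALS9 0.23 under normexp and 0.40 with raised values, and EIF2AK2 0.079 under normexp. With 1 array left out, changes on days 40 to 45 ran from -0.066 to 0.26 for IFITM3, -0.15 to 0.28 for DHX58 and -0.44 to 0.19 for MX1. On days 150 to 160 they ran from -0.032 to 0.29 for IFITM3, -0.23 to 0.23 for LGALS9, -0.075 to 0.082 for EIF2AK2, -0.46 to 0.17 for MX1 and -0.10 to 0.13 for MX2.

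Over all probes, 35 were called on days 20 to 25 against cyclic and 2 to 137 under the alternatives, 147 and 12 to 285 on days 40 to 45, and 952 and 21 to 1185 on days 150 to 160. LGALS9 and MX2 lay near background, which limits their fold changes.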
